A study of Mus musculus with 8 samples.

Results

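This account covers 35 genes of cholesterol synthesis, uptake and efflux, all measured, of the 15110 genes in the deposited table. They were chosen by name, and the set was picked on these data because genes of cholesterol synthesis had lower read counts in Egr4-/- than in wild type ganglia. The comparison of genotypes below is therefore a description of the values that chose the genes. RNA came from whole geniculate ganglia, which hold the cell bodies of taste neurons, of 4 adult Egr4-/- mice and 4 adult Egr4+/+ wild type littermates, all of the C57Bl/6 strain, with 1 library per mouse. The Egr4 protein is a DNA-binding factor with zinc fingers, related to Egr1. The labels do not state which part of Egr4 was deleted or in which cells.

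Cells make cholesterol from acetyl-CoA. The mevalonate steps build isoprene units and join them into farnesyl pyrophosphate, and the squalene and sterol steps turn that into lanosterol and then cholesterol. SREBP transcription factors, held in the endoplasmic reticulum by INSIG proteins and escorted by SCAP, switch on these enzymes when sterol is scarce. Liver X receptors do the reverse and switch on the exporters ABCA1 and ABCG1 when sterol is plentiful. In peripheral nerve, myelin is rich in cholesterol, and the glia that make it are major sites of its synthesis.

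Libraries held 43192969 to 54255872 counts in knockout ganglia and 30849310 to 48571434 counts in wild type ganglia. Egr4 itself stood at 0.444 to 1.22 CPM in knockout and at 0.925 to 3.23 CPM in wild type libraries. CPM is the count relative to the library total after edgeR's TMM scaling. The ranges overlapped, and counts over the whole gene do not test the genotype labels. The material is a mixture of cells, so fewer cells of a type and less RNA per cell cannot be told apart in any value below.

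Promoter windows of the genes are shown first, because the enzymes share a feature there that their choice did not use. RefSeq promoter sequences (build GRCm38.p6, from 250 bases before to 50 bases after an annotated start) were given for 27 of the 35 genes. Both strands were searched for CCAAT, the letters bound by NF-Y, a factor known to act beside SREBP, and for TCACNCCA, letters common to described sterol regulatory elements. CCAAT was found in 14 of the 15 synthesis enzymes with a window (93.3%), in 7 of the 12 other members with a window (58.3%) and in 41.1% of the 27025 genes with a window. TCACNCCA was rarer, in 2 of the 15 enzymes (13.3%), Hmgcs1 and Msmo1, in 2 of the 12 other members (16.7%), Srebf2 and Apoe, and in 4.97% of all genes. A match of letters is a description and not a bound site. Several genes have more than 1 window, and a gene was counted if any of its windows held a match. Pmvk has CCAAT in its window at chr3:89454291-89454590 and 0 matches in that at chr3:89459321-89459620. Of the Dhcr7 windows, only that at chr7:143829964-143830263 holds CCAAT. The enzymes Fdps, Fdft1 and Sqle had no window. Matches overlapped each other in the window of 1 member, Fasn.

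Of the sequences, 4 are of enzymes whose counts are described below, and the Insig2 window is set beside them because its fold change had the other sign. Capitals mark CCAAT or TCACNCCA on either strand, so that CCAAT on the other strand reads ATTGG. Windows are at chr13:119690101-119690400 on the plus strand for Hmgcs1, chr13:8885356-8885655 on the plus strand for Idi1, chr5:4104648-4104947 on the minus strand for Cyp51, chr8:64733529-64733828 on the minus strand for Msmo1 and chr1:121332540-121332839 on the minus strand for Insig2. All are written 5′ to 3′.
Hmgcs1: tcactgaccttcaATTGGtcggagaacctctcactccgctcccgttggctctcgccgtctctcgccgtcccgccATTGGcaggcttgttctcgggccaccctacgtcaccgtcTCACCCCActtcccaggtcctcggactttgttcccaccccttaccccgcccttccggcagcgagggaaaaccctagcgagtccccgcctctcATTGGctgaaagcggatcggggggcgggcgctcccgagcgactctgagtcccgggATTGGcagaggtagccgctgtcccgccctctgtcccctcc
Idi1: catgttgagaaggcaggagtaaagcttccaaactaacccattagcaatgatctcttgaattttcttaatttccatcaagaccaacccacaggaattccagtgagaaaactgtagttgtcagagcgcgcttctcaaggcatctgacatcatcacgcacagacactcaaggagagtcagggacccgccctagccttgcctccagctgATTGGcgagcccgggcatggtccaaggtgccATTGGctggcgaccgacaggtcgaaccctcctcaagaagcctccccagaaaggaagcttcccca
Cyp51: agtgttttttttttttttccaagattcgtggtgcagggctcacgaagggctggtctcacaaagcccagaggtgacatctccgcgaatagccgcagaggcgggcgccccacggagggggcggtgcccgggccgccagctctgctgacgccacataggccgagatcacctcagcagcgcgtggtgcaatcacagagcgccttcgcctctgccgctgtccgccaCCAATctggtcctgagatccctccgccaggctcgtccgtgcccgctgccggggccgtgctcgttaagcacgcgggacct
Msmo1: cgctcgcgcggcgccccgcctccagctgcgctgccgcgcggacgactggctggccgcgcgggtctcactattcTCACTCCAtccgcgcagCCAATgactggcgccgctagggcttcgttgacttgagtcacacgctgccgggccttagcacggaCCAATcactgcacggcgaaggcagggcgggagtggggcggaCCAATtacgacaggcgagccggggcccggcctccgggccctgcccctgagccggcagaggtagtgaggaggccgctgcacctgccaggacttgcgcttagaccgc
Insig2: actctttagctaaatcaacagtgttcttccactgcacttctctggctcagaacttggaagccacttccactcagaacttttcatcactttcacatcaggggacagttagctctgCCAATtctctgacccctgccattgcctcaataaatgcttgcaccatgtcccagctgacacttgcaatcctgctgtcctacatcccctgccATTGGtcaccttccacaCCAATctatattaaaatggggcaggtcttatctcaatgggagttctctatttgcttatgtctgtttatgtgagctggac
The Hmgcs1 window holds 4 CCAAT matches and 1 TCACNCCA match, which begins 137 bases before the start. In the Msmo1 window, 3 CCAAT matches lie downstream of a TCACNCCA match that begins 177 bases before the start. Idi1 has 2 CCAAT matches, Cyp51 has 1 and this Insig2 window has 3. Insig2 has 3 windows in all, and the other 2 hold 0 CCAAT matches.

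Levels per gene length spanned a wide range in the ganglion. Apoe, the lipid carrier of glia and macrophages, stood highest at 5373 ± 1237 FPKM (CPM divided by gene length in kilobases) in knockout and 5397 ± 775 FPKM in wild type ganglia (SD, n = 4 each), above 99.98% of genes in wild type. The desaturase Scd2, at 152 ± 43.0 FPKM in knockout and 253 ± 80.8 FPKM in wild type ganglia, was next by its wild type level. Among synthesis enzymes Hmgcs1, which makes HMG-CoA, had 116 ± 19.4 FPKM in knockout and 217 ± 59.6 FPKM in wild type ganglia, and Fdps, which makes farnesyl pyrophosphate, had 155 ± 16.4 FPKM in knockout and 212 ± 53.9 FPKM in wild type ganglia. The wild type levels of Scd2, Hmgcs1 and Fdps differed by less than their SDs. The lowest enzyme was Lss, the cyclase that forms lanosterol, with 4.85 ± 0.821 FPKM in knockout and 7.11 ± 2.47 FPKM in wild type ganglia. The lowest of all 35 was the exporter Abca1, with 1.45 ± 0.470 FPKM in knockout and 2.04 ± 1.03 FPKM in wild type ganglia. Most of the 1453 annotated exon bases of Fdps (1124) are shared with Gm43738 on the same strand, so how its reads were assigned is uncertain. In all, 11 of the 35 genes share exon bases with another annotated gene, among them Hmgcs1, Idi1, Lss, Cyp51, Srebf1 and Scap.

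**Figure D1:**
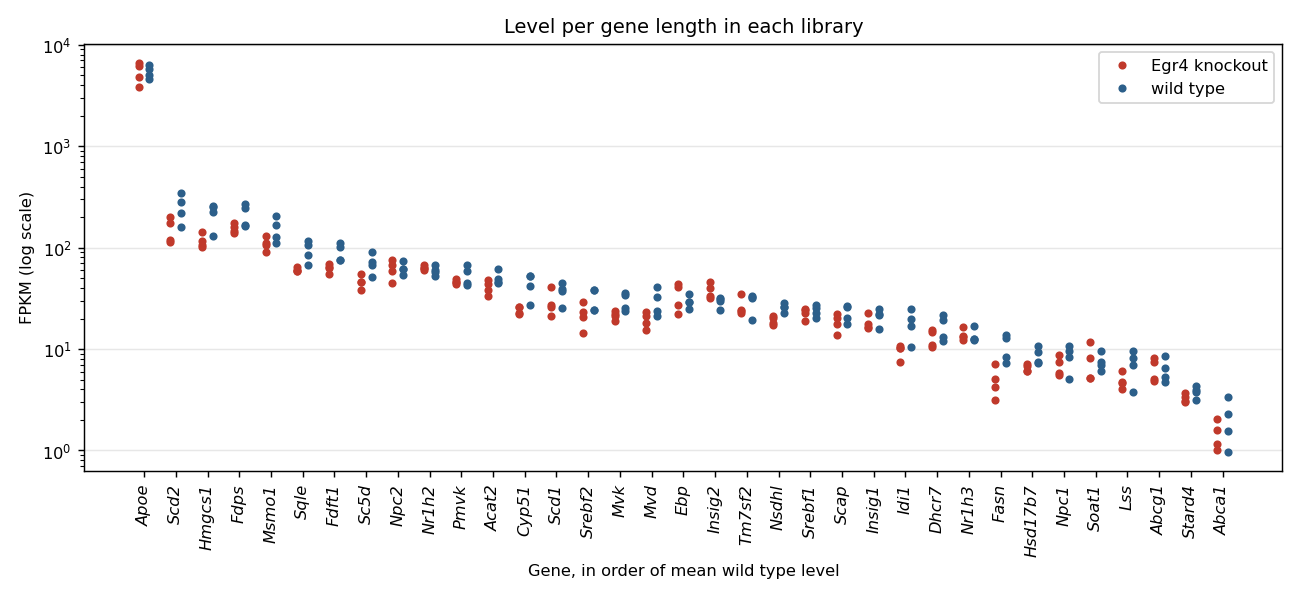
Level of each of the 35 genes in FPKM on a log scale, in order of the wild type mean, with 1 point per library (left of each pair Egr4 knockout, right wild type, 4 libraries each). Apoe stands apart at the top and Abca1 lies lowest, at 2.04 FPKM in wild type.

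Gene pairs with related roles were compared within each library, a measure that the choice of genes did not use. Differences of log2(FPKM + 0.1) were tested over the 8 libraries with a two-sided exact permutation test of paired values, in which 0.00781 is the smallest possible p, adjusted over 6 pairs. Scd2 stood above Scd1 in 8 of 8 libraries, by 2.58 ± 0.28 on the log2 scale (SD, n = 8, adjusted exact p = 0.0117), or 5.96-fold. Both encode desaturases that make monounsaturated fatty acids. The genes are close relatives, so reads from shared stretches may have been dropped or assigned to either, which this test cannot detect. Nr1h2, the liver X receptor made in most tissues, stood above Nr1h3, its partner of macrophages and liver, in 8 of 8 libraries by 2.16 ± 0.26 (adjusted exact p = 0.0117). Npc2, the soluble lysosomal cholesterol carrier, stood above Npc1, the membrane protein that takes cholesterol from it, in 8 of 8 libraries by 3.03 ± 0.33 (adjusted exact p = 0.0117). Abcg1 stood above Abca1 in every one of the 8, and Abca1 minus Abcg1 was -1.87 ± 0.76 (adjusted exact p = 0.0117).

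The INSIG genes, whose proteins hold SCAP and SREBP back, were closer in level. Insig1 minus Insig2 was -0.76 ± 0.47 on the log2 scale (SD, n = 8, adjusted exact p = 0.0187), with Insig1 above Insig2 in 1 of 8 libraries, a wild type one. For Srebf2, the SREBP that mainly drives cholesterol synthesis, minus Srebf1, which mainly drives fatty acid synthesis, the difference was 0.14 ± 0.39 (adjusted exact p = 0.344), with Srebf2 higher in 6 of 8 libraries. In knockout libraries 3 and 4 Srebf1 was the higher. Between Srebf2 and Srebf1 no difference beyond the spread was detected over the 8 libraries. Without knockout library 4, in which Srebf2 was lowest, the same difference was 0.25 (adjusted exact p = 0.0469), within a range of 0.07 to 0.25 over fits that left out 1 library. Srebf2 minus Srebf1 averaged -0.09 ± 0.41 within knockout and 0.36 ± 0.21 within wild type (SD, n = 4 each). Within 4 libraries of a genotype the smallest possible p is 0.125, so such comparisons are values only.

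**Figure D2:**
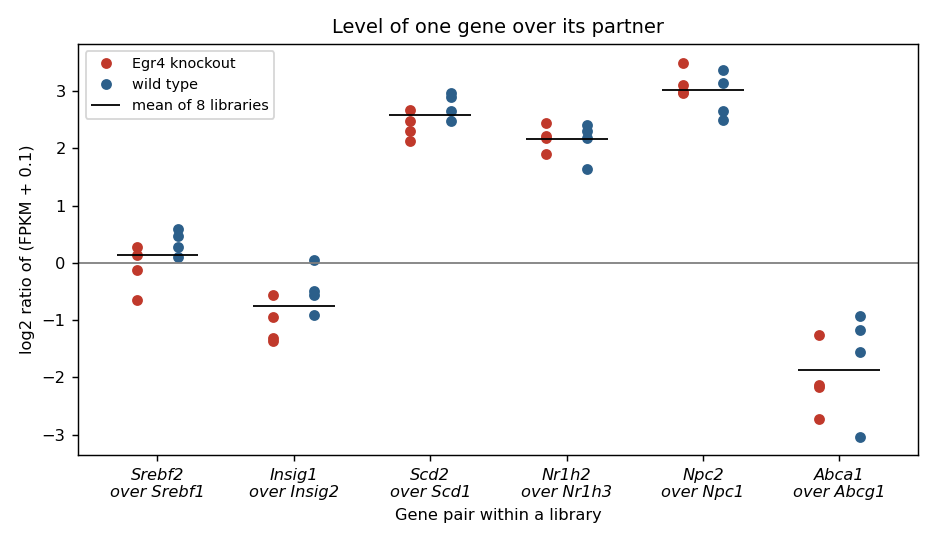
Log2 ratio of (FPKM + 0.1) of each gene over its partner in the same library, for 6 pairs (red, left: 4 Egr4 knockout libraries; blue, right: 4 wild type libraries; line: mean of 8). Scd2, Nr1h2 and Npc2 lie above their partners in all 8 libraries and Abca1 lies below Abcg1 in all 8.

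In knockout against wild type ganglia, 17 of the 18 synthesis enzymes had a negative log2 fold change, with a median of -0.48, or 0.716 of the wild type level, where 48.7% of all genes had a negative value and the median of all genes was 0.01. The groups did not overlap, each knockout library being lower, for 5 of the 18 (Fdft1, Sqle, Cyp51, Nsdhl and Hsd17b7) and for 1 of the other 17 members (Fasn), against 1.41% of all genes; 0 members had every knockout library above every wild type library, against 1.21% of all genes. Tested across all genes with edgeR's quasi-likelihood test and Benjamini-Hochberg adjustment, 0 of the 35 members were called at an adjusted p under 0.05, against 0.00662% of all genes. At an unadjusted p under 0.05 there were 14 members with negative and 1 with positive values, against 2.9% and 1.94% of all genes. None of the 35 was called by DESeq2, by limma-voom or by edgeR's likelihood ratio test (0 in each). For the 18 enzymes alone, the count at an unadjusted p under 0.05 was 12, and 7 without wild type library 1, without wild type library 3 or without knockout library 3. It was also 7 with Xist class as a covariate: Xist counts were 0 in knockout libraries 1 and 2 and in wild type library 4, and above 0 in the other 5 libraries. Since the genes were chosen for this direction, these counts support nothing beyond the values themselves.

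**Figure D3:**
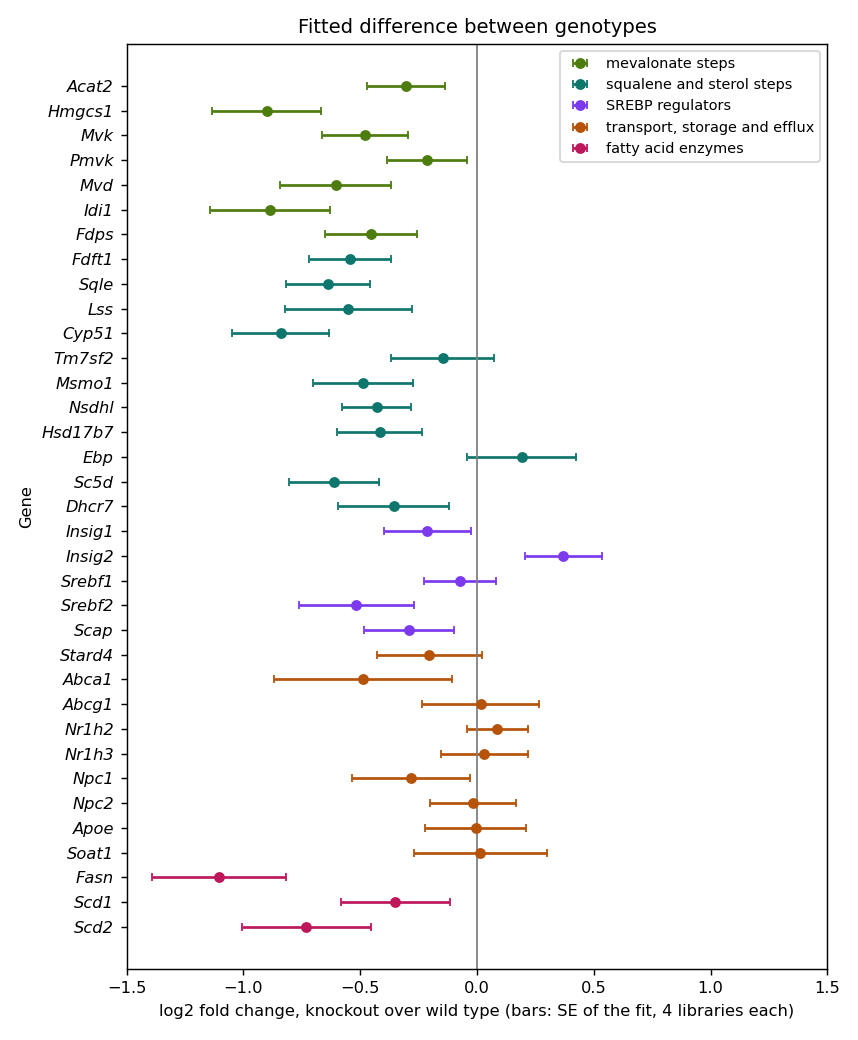
Fitted log2 fold change of each gene, knockout over wild type, with the standard error of the edgeR fit (4 libraries each), coloured by role group. Of 18 synthesis enzymes 17 lie left of 0, while transport, storage and efflux genes lie around 0 with a median of -0.01.

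All 7 enzymes of the mevalonate steps had negative values, with a median of -0.48 and a range of -0.90 (Hmgcs1) to -0.21 (Pmvk). Hmgcs1 (chromosome 13, 119690351 to 119708260, mm10) had 360.0, 515, 412 and 376 CPM in knockout libraries 1 to 4, against 923, 907, 809.8 and 465 CPM in wild type libraries 1 to 4. Wild type library 4 lay within the knockout range and the other 3 wild type libraries lay well above it. The fitted log2 fold change was -0.90 ± 0.23 (SE). Idi1, the isomerase that makes the reactive isoprene unit, had 29.2, 30.7, 29.4 and 21.6 CPM in knockout libraries, against 70.7, 56.6, 48.0 and 29.9 CPM in wild type libraries, with a log2 fold change of -0.89 ± 0.26 (SE). Again wild type library 4 lay among the knockout libraries. Mvk, which phosphorylates mevalonate, had 38.2, 41.2, 32.7 and 36.6 CPM in knockout libraries, against 62.5, 44.2, 59.5 and 40.9 CPM in wild type libraries. Here knockout library 2 and wild type library 4 were nearly equal, and the log2 fold change was -0.48 ± 0.18 (SE).

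The other 4 mevalonate enzymes overlapped between genotypes too. Mvd, which decarboxylates mevalonate pyrophosphate, had a log2 fold change of -0.61 ± 0.24 (SE). Fdps was at -0.45 ± 0.20 (SE). Acat2, the cytosolic thiolase that makes acetoacetyl-CoA, was at -0.30 ± 0.17 (SE), and at -0.19 without wild type library 1. Pmvk, the next kinase after Mvk, was at -0.21 ± 0.17 (SE), and at -0.08 without wild type library 1. Each of the 7 was highest in library 1 among wild type mice.

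Of the 11 enzymes of the squalene and sterol steps, 10 had negative values and 1 a positive one, with a median of -0.49. Cyp51 (chromosome 5, 4080674 to 4104697), which removes a methyl group from lanosterol, had 112, 114, 97.1 and 98.4 CPM in knockout libraries, against 227, 227, 182 and 119 CPM in wild type libraries. The groups did not overlap, but wild type library 4 lay close to the knockout values; the fitted log2 value was -0.84 ± 0.21 (SE). Sqle (chromosome 15, 59315092 to 59331193), squalene epoxidase, a rate-limiting step of the late pathway, had 159.9, 162, 165 and 177 CPM in knockout libraries, against 295, 234, 318 and 185 CPM in wild type libraries. The 4 knockout values lay within 1.11-fold of each other and the wild type values within 1.71-fold. Its log2 fold change was -0.64 ± 0.18 (SE). Fdft1, squalene synthase, had 231, 236, 204 and 253 CPM in knockout libraries, against 415, 277, 376 and 277 CPM in wild type libraries, a fitted log2 value of -0.54 ± 0.18 (SE), and the groups did not overlap. It shares 774 exon bases with Ctsb on the other strand, and no strand information was described. Sc5d, which places a double bond in the sterol ring, had 104, 124, 103 and 85.9 CPM in knockout libraries, against 204, 164, 153 and 115 CPM in wild type libraries, with a log2 fold change of -0.61 ± 0.19 (SE). Wild type library 4 lay below knockout library 2.

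Of the remaining sterol enzymes, Nsdhl and Hsd17b7, which work in the removal of the methyl groups at carbon 4 together with Msmo1, had log2 fold changes of -0.43 ± 0.15 and -0.42 ± 0.18 (SE), both without overlap. Msmo1 had 239, 203, 192 and 165 CPM in knockout libraries, against 376, 234, 307 and 201 CPM in wild type libraries, at -0.49 ± 0.21 (SE), or -0.31 without wild type library 1. Its groups overlapped in wild type libraries 2 and 4. Lss was at -0.55 ± 0.27 (SE). Lss had 23.8 CPM in wild type library 4, below all 4 knockout libraries at 25.8 to 38.0 CPM. Dhcr7, the last reductase before cholesterol, was at -0.36 ± 0.24 (SE) and the reductase Tm7sf2 at -0.15 ± 0.22 (SE). Ebp, the isomerase between the sterol intermediates, was the 1 enzyme with a positive value, 0.19 ± 0.23 (SE), and had 76.2, 72.0, 38.7 and 47.2 CPM in knockout libraries, against 60.8, 43.4, 50.4 and 50.6 CPM in wild type libraries. Its knockout libraries thus lay both above and below the wild type range, and its value was 0.047 without knockout library 1 and 0.34 without knockout library 3. Without knockout library 1 Tm7sf2 was at -0.30, and without knockout library 3 at -0.083, while Dhcr7 was at -0.20 without wild type library 3.

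**Figure D4:**
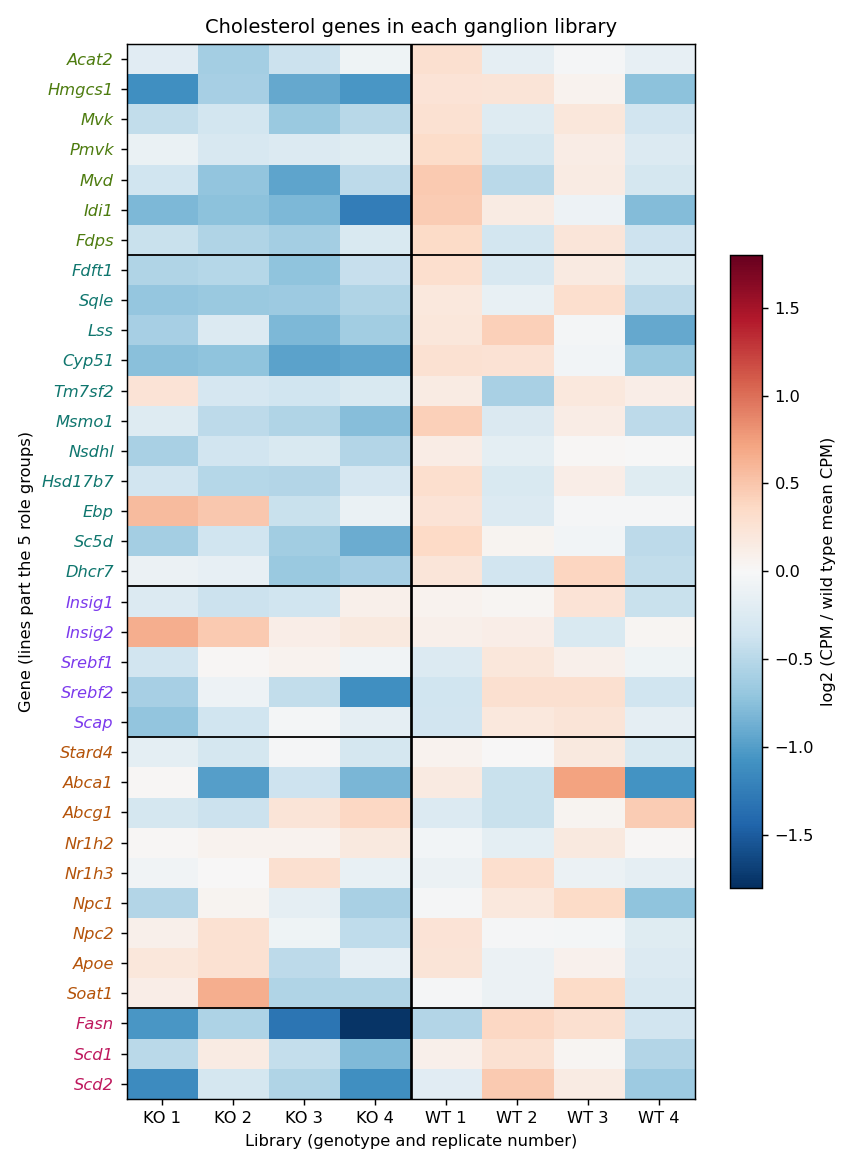
Log2 of CPM over the wild type mean for the 35 genes (rows, in 5 role groups) in 4 Egr4 knockout libraries (left) and 4 wild type libraries (right). Blue fills most enzyme rows in the knockout libraries and also many in wild type library 4, where 10 of 18 enzymes had their lowest wild type value.

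The order of libraries within a genotype was read separately from the difference between genotypes. Within wild type, 14 of the 18 enzymes were highest in library 1, where 22.9% of all genes were, and 10 of 18 were lowest in library 4, where 29.4% of all genes were. The other 8 were lowest in library 2. Of the other 17 members, 2 were highest in wild type library 1 and 8 in wild type library 3, and 10 were lowest in wild type library 4, as were 10 of the enzymes. Within knockout, 10 of the 18 enzymes were lowest in library 3, where 17.1% of all genes were, and no library held more than 6 of the highest values. The fold range over 4 libraries was wider in wild type than in knockout for 15 of the 18 enzymes (83.3%), for 9 of the other 17 members (52.9%) and for 47.7% of all genes. These are descriptions, and genes of 1 library share its depth and its mix of cells.

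Among the 5 SREBP regulators, 4 had negative values and 1 a positive one, with a median of -0.21, and 0 had groups without overlap. Srebf2 (chromosome 15, 82147269 to 82204960) had 94.2, 134, 105 and 66.2 CPM in knockout libraries, against 111, 174, 175 and 111 CPM in wild type libraries. The fitted value of -0.52 ± 0.24 on the log2 scale (SE) became -0.36 when knockout library 4 was left out, and the ranges overlapped. Scap had 59.5, 75.5, 94.8 and 86.5 CPM in knockout libraries, against 76.6, 111, 114 and 86.3 CPM in wild type libraries, with a log2 fold change of -0.29 ± 0.19 (SE), or -0.17 without knockout library 1. Srebf1 had 80.7, 104, 108 and 98.1 CPM in knockout libraries, against 86.6, 118, 109 and 97.0 CPM in wild type libraries, and its log2 fold change was -0.07 ± 0.15 (SE). The ranges of Srebf1 nearly coincided, and its value was 0.02 without knockout library 1 and -0.15 without wild type library 1.

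The INSIG genes had opposite signs. Insig2 (chromosome 1, 121304353 to 121332589) had 135, 119, 93.4 and 97.7 CPM in knockout libraries, against 91.5, 93.6, 71.0 and 88.6 CPM in wild type libraries, with a log2 fold change of 0.37 ± 0.17 (SE). Knockout libraries 1 and 2 stood above the rest, and knockout library 3 lay just under wild type library 2. Insig1, itself a target of SREBP, had 47.0, 42.9, 43.6 and 59.6 CPM in knockout libraries, against 58.2, 57.0, 66.2 and 42.2 CPM in wild type libraries, with a log2 fold change of -0.21 ± 0.18 (SE). Library 4 was the highest of the knockout libraries, and the lowest wild type library lay below all 4 of them. The value of Insig1 was -0.33 without knockout library 4 and -0.12 without wild type library 3.

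Of the 9 genes of transport, storage and efflux, 5 had negative and 4 positive values, with a median of -0.01, and all 9 overlapped between genotypes. Abca1 (chromosome 4, 53030789 to 53159895) had 21.2, 10.5, 16.2 and 11.9 CPM in knockout libraries, against 23.5, 15.9, 34.5 and 9.93 CPM in wild type libraries. Its log2 fold change of -0.49 ± 0.38 (SE) was -0.15 without wild type library 3. Abcg1 had 29.4, 28.2, 43.1 and 47.5 CPM in knockout libraries, against 30.9, 27.8, 37.8 and 50.3 CPM in wild type libraries, with a log2 fold change of 0.01 ± 0.25 (SE). The ranges of Abcg1 nearly coincided. Apoe had 9853, 10386, 6148 and 7702 CPM in knockout libraries, against 10021, 7927, 9053 and 7237 CPM in wild type libraries, a log2 fold change of -0.01 ± 0.21 (SE).

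The lysosomal pair also overlapped. Npc1 had 30.4, 45.5, 39.2 and 29.2 CPM in knockout libraries, against 43.1, 50.02, 55.7 and 26.5 CPM in wild type libraries, with a log2 fold change of -0.28 ± 0.25 (SE). Npc2 had 218, 247, 193 and 148 CPM in knockout libraries, against 241, 199.8, 199 and 175 CPM in wild type libraries, with a log2 fold change of -0.02 ± 0.18 (SE). For Npc1 the lowest library of all 8 was wild type library 4, and its value was -0.46 without that library and -0.15 without wild type library 3. The liver X receptors overlapped closely. Nr1h2 had 123, 126, 126 and 137 CPM in knockout libraries, against 116, 106, 137 and 122 CPM in wild type libraries (log2 fold change 0.09 ± 0.13, SE; 0.037 without wild type library 2 and 0.15 without wild type library 3). Nr1h3 had 26.5, 27.7, 33.7 and 25.2 CPM in knockout libraries, against 25.8, 34.2, 25.8 and 24.8 CPM in wild type libraries (log2 fold change 0.03 ± 0.19, SE). Stard4, a cytosolic sterol carrier and SREBP target, had 9.97, 9.06, 11.1 and 9.10 CPM in knockout libraries, against 11.8, 11.3, 12.8 and 9.35 CPM in wild type libraries, with a log2 fold change of -0.20 ± 0.22 (SE). Soat1, which esterifies cholesterol for storage, was at 0.01 ± 0.28 (SE) and ran from 24.7 to 56.4 CPM in knockout and from 29.4 to 45.4 CPM in wild type libraries. The signs of Abcg1, Nr1h3, Npc2, Apoe and Soat1 turned in some of the 18 alternative fits, those of Abca1, Npc1, Stard4 and Nr1h2 in 0.

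All 3 fatty acid enzymes had negative values. Fasn, fatty acid synthase (chromosome 11, 120805958 to 120824547), had the most negative of the 35, with 50.5, 71.2, 42.3 and 30.99 CPM in knockout libraries, against 72.9, 136, 128 and 82.9 CPM in wild type libraries. Its groups did not overlap, with knockout library 2 just under wild type library 1, and the log2 fold change was -1.11 ± 0.29 (SE). Scd2 had 626, 1103, 947 and 643 CPM in knockout libraries, against 1196, 1903, 1529 and 877 CPM in wild type libraries, with a log2 fold change of -0.73 ± 0.28 (SE). Scd1 had 126, 197, 131 and 102 CPM in knockout libraries, against 189, 215, 182 and 123 CPM in wild type libraries, with a log2 fold change of -0.35 ± 0.23 (SE), or -0.57 without knockout library 2 and -0.23 without knockout library 4. All 3 were highest in library 2 among wild type mice, where 1 of the 18 synthesis enzymes and 25.2% of all genes were. Among knockout mice all 3 were also highest in library 2, as were 6 of the 18 synthesis enzymes and 30.8% of all genes. Scd1 and Scd2 are close relatives, so reads from shared stretches may have been dropped or assigned to either.

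Other genes of the pathway, listed by role with earlier results of these data known, were read from the same fit. Their counts are thus a description. Of 76 measured, 49 had negative and 27 positive log2 fold changes, with a median of -0.11, and edgeR's quasi-likelihood test called 0 of them, as did DESeq2, limma-voom and edgeR's likelihood ratio test; 11 with negative and 1 with positive values had an unadjusted p under 0.05, where 2.9% and 1.94% of all genes did. Groups did not overlap for 4 of the 76 with the knockout lower and for 1 with the knockout higher, where this held for 1.41% and 1.21% of all genes. Among 17 synthesis enzymes and helpers the median was -0.12. Aacs, which activates ketone bodies for lipid synthesis, averaged 117 ± 9.02 CPM in knockout and 195 ± 46.9 CPM in wild type ganglia (SD, n = 4 each), and Acly, which makes cytosolic acetyl-CoA from citrate, averaged 340.5 ± 30.2 CPM in knockout and 506 ± 76.0 CPM in wild type ganglia, both without overlap.

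Of 10 genes of lipoprotein receptors and uptake, 8 had negative values. Sort1, the sorting receptor sortilin, had a log2 fold change of -0.99 ± 0.25 (SE) without overlap. The 24 genes of sterol transport, storage and oxysterols had a median of -0.09, with Osbp, an oxysterol binding protein, at -0.67 ± 0.23 and Hsd3b7, an enzyme of bile acid synthesis, at 0.72 ± 0.26 (SE). The 13 other genes of fatty acid synthesis had a median of -0.27, with Acaca, acetyl-CoA carboxylase, at -0.69 ± 0.28 and the desaturase Fads2 at -0.41 ± 0.17 (SE). The 12 genes of sterol sensing and turnover had a median of 0.02. The NF-Y subunits had both signs: Nfyc was at 0.36 ± 0.17, Nfya at 0.32 ± 0.45 and Nfyb at -0.13 ± 0.21 (SE). Nfya was low, averaging 2.61 CPM in knockout and 2.09 CPM in wild type ganglia.

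Lists of cell type markers were measured in the same libraries. The mean log2 CPM of the 18 enzymes was 6.32, 6.29, 6.09 and 6.17 in knockout libraries 1 to 4, against 7.001, 6.56, 6.81 and 6.33 in wild type libraries 1 to 4. Among 13 markers of myelinating Schwann cells, 12 were at negative values (median log2 fold change -0.52), and their summed level ran from 14780 to 32870 CPM in knockout and from 25510 to 41000 CPM in wild type libraries. Their mean log2 CPM was 8.46, 9.01, 9.16 and 8.07 in knockout libraries and 9.31, 9.35, 9.48 and 8.51 in wild type libraries. Wild type library 4 was thus lowest of its genotype in both lists, while knockout library 3 was the highest knockout library in myelin genes and the lowest in enzymes. All 9 genes of the list named for non-myelinating Schwann cells had negative values (median -0.51). They were Ngfr, Ncam1, L1cam, Scn7a, Cdh2, Gfap, Sox10, S100b and Erbb3, and whether they mark that cell type alone was not tested. They summed to 1739 to 3319 CPM in knockout and 2873 to 4384 CPM in wild type libraries. The mean log2 CPM of this list was at most 6.78 in knockout libraries and at least 6.80 in wild type libraries. These list means thus did not overlap, but the summed levels did. For 1 of the 9 genes every knockout library was below every wild type library, against 1.41% of all genes. Of 10 oligodendrocyte genes 8 had negative values (median -0.62), and the list summed to 298.3 to 1478 CPM in knockout and 845.7 to 1867 CPM in wild type libraries. Ugt8a is counted both in this list and in that of myelinating Schwann cells. No marker of these 3 lists was at 0 in any library, and their part in the enzyme values was not tested.

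**Figure D5:**
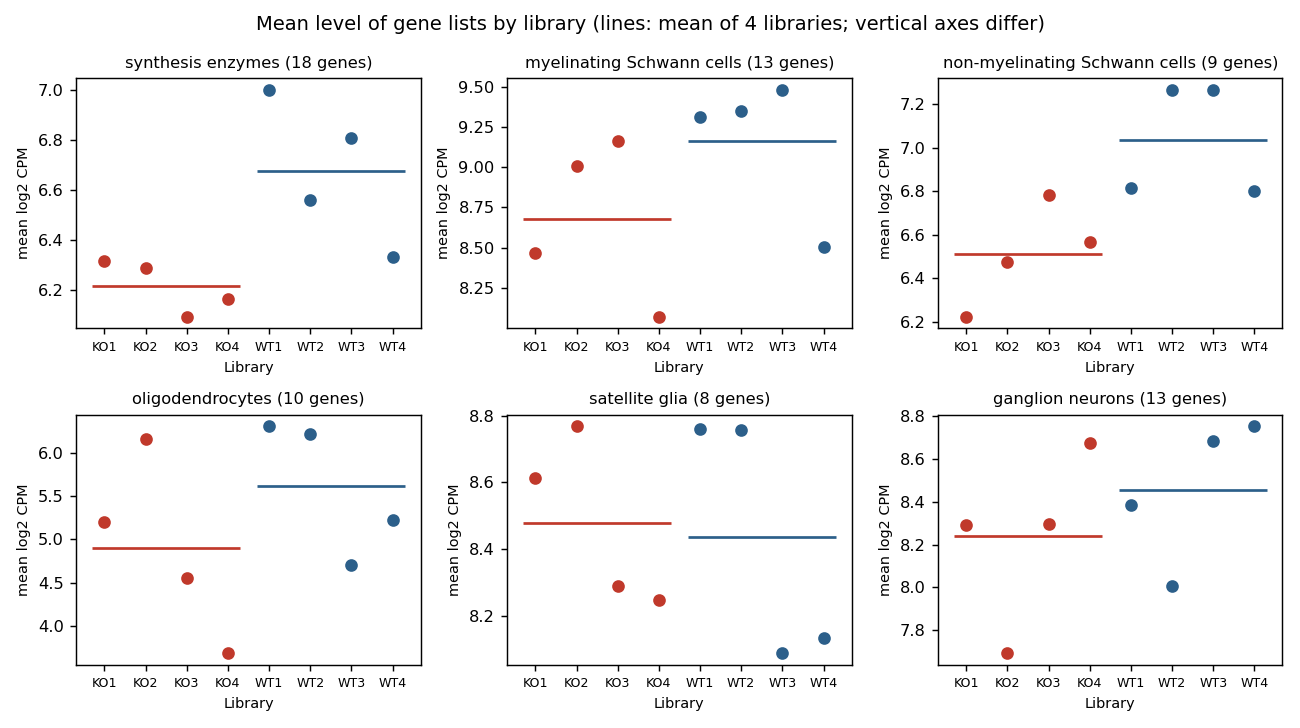
Mean log2 CPM of the 18 synthesis enzymes and of 5 lists of cell type markers in each library (red: 4 Egr4 knockout; blue: 4 wild type; lines: mean of 4). The enzyme means of the knockout libraries (6.09 to 6.32) lie just below wild type library 4 (6.33). The mean of the non-myelinating Schwann cell list also lies lower in all 4 knockout libraries, at most 6.78 against at least 6.80. The means of the other 4 marker lists overlap.

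Markers of other cell types were read in the same way. Of 8 satellite glia genes, the member Apoe among them, 4 had negative values (median 0.07). Of 13 ganglion neuron genes, 9 had negative values (median -0.12). The 13 summed to 5954 to 14950 CPM in knockout and 6623 to 14380 CPM in wild type libraries, with none at 0. The 10 macrophage genes had a median of -0.14 and the 7 fibroblast genes one of -0.12. All 9 measured skeletal muscle genes had positive values (median 4.18), with 1 of the 9 at 0 in at least 1 library. They summed to 84.1 to 2534 CPM in knockout libraries, highest in library 4, against 31.4 to 525 CPM in wild type libraries. All 10 endothelial genes and all 9 choroid plexus and meningeal genes were positive (medians 0.80 and 1.10). The endothelial genes summed to 474.8, 1402, 391.5 and 313.8 CPM in knockout libraries 1 to 4, highest in library 2. In wild type libraries 1 to 4 their sums were 318.1, 400, 297.7 and 322.2 CPM, so the ranges overlapped. The choroid plexus and meningeal genes summed to 24670 to 93600 CPM in knockout and 10170 to 30800 CPM in wild type libraries. All 10 neutrophil and marrow genes were negative (median -0.94). These 10 summed to 1436, 1142, 365.2 and 115.6 CPM in knockout libraries 1 to 4. In wild type libraries 1 to 4 the sums were 423, 292, 1535 and 3742 CPM, so the ranges overlapped. The 5 measured adipocyte genes had a median near 0 but ran from -0.30 to 3.65. Their mean log2 CPM was 1.755 to 3.639 in knockout libraries, highest in library 4, and 1.194 to 2.36 in wild type libraries. The part of these lists in the enzyme values was not tested either.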

How the data were processed

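Per the labels, total RNA of geniculate ganglia from 4 Egr4-/- and 4 Egr4+/+ mice was made into libraries from low input with SMART-Seq v4 and Nextera XT kits and sequenced as read pairs. FastQC 0.11.5, STAR 2.5, featureCounts of Subread 1.5.1, edgeR 3.12.1 and build mm10 are named, per the submitters' processing notes; a strand setting is not given in the sources used here. The authors deposited raw counts and log2 FPKM per gene and library, with gene lengths, and a comparison with log2 fold changes, p-values and false discovery rates that was not used here. FPKM recomputed from counts, lengths and TMM-scaled totals differed from the deposited log2 values by at most 0.00348 over 5330 genes with high counts. All 15110 genes were tested with edgeR 4.0.16 in R 4.3.3 (TMM, robust quasi-likelihood F-test, genotype only, Benjamini-Hochberg, 0.05); the default filter removed 0 genes. Standard errors are the log2 fold change over the root of F. The test was run on simulated counts drawn independently for each gene, which does not check it for shared differences in cell mix. List means use log2 CPM with a prior count of 2. The members and lists were chosen with earlier results of these data known. Values in every library are given for the 3 or 4 genes of each role group with the smallest unadjusted p. They are also given for all 3 fatty acid enzymes and the paired genes. For other pathway genes, means or fold changes are given for the 2 smallest per list. Library values of Ebp, Msmo1 and Apoe and the fold change of Nfyb were added after they were seen. Some other genes the rule names are not reported here. Alternatives used DESeq2 1.42.0, limma 3.58.1 (voom), other scalings and filters, replicate blocks, Xist class as a covariate and each library left out. The labels do not say whether same-numbered mice are paired, so the numbers were not taken as pairs. Same-numbered libraries of the genotypes correlated at 0.004 to 0.149 in their deviations. Knockout libraries 1, 2 and 4 correlated best with the wild type library of the same number. Knockout library 3 did so with wild type library 4. In the quasi-likelihood test, 1452 genes had an unadjusted p under 0.05 with the replicate block and 731 without it. The smallest adjusted p of a member was 0.341 with the block and 0.924 without it. Whether the mice are pairs is thus not settled here. No 2 libraries of a group agreed within sampling noise. Precision is set by the spread over 4 mice. Of the 79 other pathway genes listed, 3 were not analysed here.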

Additional observations from a re-analysis of the deposited data

Results flagged for a closer look

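Of 82 sets of 4 libraries (each gene and gene list, in each genotype), 4 held a library well apart from the others, and about 4.1 would by chance. The size of that separation, divided by the range of the set, was 0.834 for Idi1, lowest in knockout library 4. For Tm7sf2 it was 0.881 in knockout, highest in library 1, and 0.879 in wild type, lowest in library 2. For Nr1h3 it was 0.896, highest in wild type library 2.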

How the results depend on the processing

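Over 18 alternative fits, 17 of the 18 synthesis enzymes kept a negative log2 fold change and 0 of the 35 members were called in any; the median of the enzymes lay between -0.60, when wild type library 4 was left out, and -0.38, when wild type library 1 was. The count of enzymes at an unadjusted p under 0.05 ran from 7 to 13. Over all genes 1 gene was called. The count was 0 with RLE factors, library size alone or Xist class, 10 with the likelihood ratio test, 14 with DESeq2, 2 with the replicate block, and 0 to 1 over fits that left out 1 library; the cause was not tested. The median of transport, storage and efflux genes turned sign without knockout library 4, in a range of -0.13 to 0.039. Within 4 libraries no pair can pass: within knockout the differences were -1.04 for Insig1 minus Insig2, 2.40 for Scd2 minus Scd1, 2.19 for Nr1h2 minus Nr1h3, 3.14 for Npc2 minus Npc1 and -2.07 for Abca1 minus Abcg1, and within wild type -0.48, 2.75, 2.13, 2.92 and -1.68. Srebf2 minus Srebf1 was -0.090 within knockout, of the other sign, and 0.36 within wild type. With 1 library left out it ran from 0.071 to 0.25.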
